A study of Mus musculus with 4 samples.

Results

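The genes described here encode the actins and the nonmuscle myosin II of cultured muscle precursor cells: the cytoplasmic actins Actb and Actg1, the muscle actins Acta1, Acta2 and Actc1, the myosin heavy chains Myh9 and Myh10, and the myosin light chains Myl9, Myl6 and Myl12a. They are 10 of 19751 named genes on the arrays, and every array probe whose RefSeq accession maps to one of them was taken, which gave 15 probes. The genes were selected on results of the same comparison, so their ratios are given as a description with no test of the members. In these data the cytoplasmic actin Actb and the heavy chain Myh9 were higher in palmitate-treated than in control myoblasts on all 4 arrays. On replicate 1 their ratios (0.29 and 0.25) were close to the median of the brightest 1% of probes there (0.27). Myh10 and Myl9 were lower on all 4 arrays with loess normalization. Acta2 and Myl12a were also below 0 on each, but Acta2 was near 0 on replicate 1 (-0.003) and Myl12a on replicate 3 (-0.02). Of all tested probes, 15.7% were above 0 and 14.5% below 0 on all 4 arrays. Acta2 lay on the other side of the median of all probes when arrays were only centred on their medians. With that centring Myl9 and Myl12a had means above 0 (0.061 and 0.032), though below the median of all probes.

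Actin monomers polymerize into the filaments that give a cell its shape, and nonmuscle myosin II pulls on these filaments during cell migration, adhesion and division. A nonmuscle myosin II molecule holds a pair of heavy chains, which carry the motor, together with essential light chains, which stiffen the lever arm, and regulatory light chains, whose phosphorylation switches the motor on. Proliferating myoblasts rely on cytoplasmic actins and nonmuscle myosin II, and replace much of this machinery by sarcomeric proteins when they fuse into myotubes. Many actin and light chain genes are targets of serum response factor (SRF), which binds CArG boxes in promoters and is activated by coactivators (MRTFs) that are released when free actin monomers are used up.

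Each of 4 two-colour Agilent arrays carried RNA of 1 palmitate-treated and 1 control culture of C2C12, a mouse myogenic cell line from thigh muscle satellite cells, at day 3 of proliferation. The palmitate cultures (Cy5, red) were exposed for 48 h to 0.1 mmol/l of this saturated fatty acid bound to serum albumin, in medium with 5% fetal bovine serum. The control cultures (Cy3, green) were untreated and, by the treatment text, grew in the same medium with ethanol and albumin, although the label of their channel gives 10% of a serum written as HS. All cultures came from 1 cell line, the dyes were not exchanged, and so an effect of palmitate and an effect of the dye on a probe cannot be told apart. A ratio below is the log2 ratio of palmitate over control within an array after dye normalization, and a signal is the normalized log2 brightness of a spot in 1 culture.

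Replicate 1 stood apart from the other arrays: over the 24169 tested probes the correlation of its ratios with the average of the other arrays was -0.08, against 0.68 to 0.77 between pairs of those 3. Member values are therefore given with and without it. Replicate 1 was singled out by these same ratios, so p-values and calls without it are a description only. Of the probes on the array, 61.9 to 70.7% were well above background in the palmitate channel and 57.6 to 64% in the control channel. All 10 myoblast markers on the array were above background on all arrays in palmitate cultures and 9 of 10 in control cultures, while 4 of 7 adipocyte markers (Adipoq, Lep, Plin1, Retn) were above it on no array in either, and 2 others (Fabp4 and Pparg) on all arrays in both. Of 5 leukocyte markers, 2 (Cd3e and Csf1r) were above background on all arrays in both groups, as was 1 of 5 osteoblast markers (Runx2). A signal above background therefore does not by itself mark a cell type on these arrays. The samples are bulk RNA, so fewer cells that express a gene and less RNA per cell cannot be told apart.

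Actb encodes β-actin, the cytoplasmic actin of the cell cortex and of stress fibres, and is often used as a reference gene. Its probe A_55_P2112737 had signals of 18.00, 18.16, 18.16 and 18.19 in the palmitate cultures of replicates 1 to 4, against 17.72, 17.43, 17.04 and 17.37 in the control cultures. The groups did not overlap, and the palmitate cultures differed less among themselves than the control cultures did. The ratios were 0.29, 0.73, 1.12 and 0.82, with a mean of 0.74 ± 0.35 (SD, n = 4 arrays), which is 1.67-fold. Without replicate 1 the mean was 0.89 ± 0.20 (SD, n = 3), or 1.86-fold.

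Actg1 encodes γ-actin, the other cytoplasmic actin, which differs from β-actin by only a few residues. Its brightest probe A_55_P1970597 had signals of 17.64, 17.90, 17.93 and 18.04 in palmitate cultures, against 17.43, 17.34, 17.08 and 17.14 in control cultures. As for Actb, all palmitate cultures lay above all control cultures and replicate 1 had the smallest gap. The ratios were 0.20, 0.57, 0.85 and 0.90, with a mean of 0.63 ± 0.32 (SD, n = 4) and of 0.77 ± 0.18 (SD, n = 3) without replicate 1.

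The other 4 probes of Actg1 ran lower than its brightest one. Their mean ratios were 0.35 for A_55_P2114993, 0.33 for A_55_P2008907, 0.32 for A_55_P1985984 and 0.29 for A_52_P72237. Each was below 0 on replicate 1 and above 0 on replicates 2 to 4, and in each the cultures of both groups overlapped. The ratio of Actb minus that of the brightest Actg1 probe on the same array averaged 0.11 ± 0.15 (SD, n = 4), and was above 0 on 3 of 4 arrays. Actins are close copies of one another and the deposited files hold no probe sequences, so the share of signal that a probe takes from another actin was not tested.

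**Figure D1:**
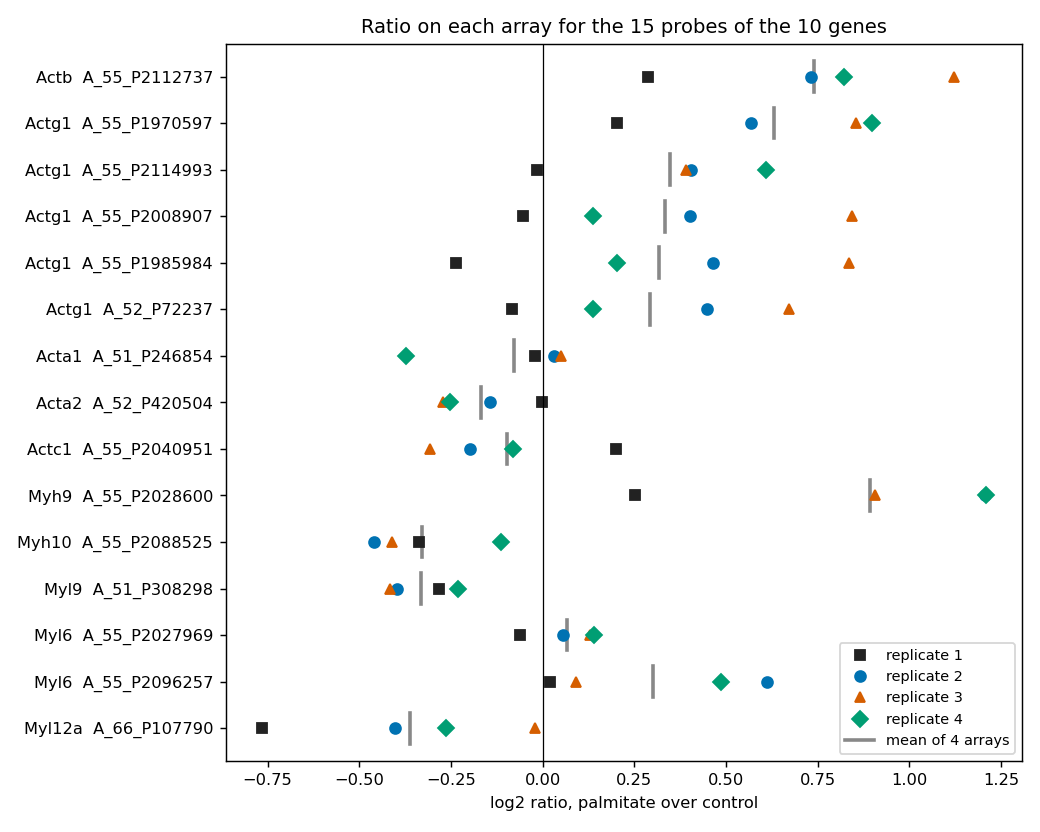
Log2 ratio of palmitate over control on each array (points; squares are replicate 1) for the 15 probes, grouped by gene, with the mean of 4 arrays as a grey bar. Actb, the brightest Actg1 probe, Myh9 and the second Myl6 probe lie right of 0 on every array, and Acta2, Myh10, Myl9 and Myl12a lie left of it with loess; with median centring the means of Acta2, Myl9 and Myl12a are above 0 (0.30, 0.061 and 0.032).

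Acta2 encodes smooth muscle α-actin, which is also made by myoblasts and by contractile fibroblasts. It was measured by 10 spots of the probe A_52_P420504, with signals of 17.17, 17.16, 17.04 and 16.89 in palmitate cultures, against 17.17, 17.31, 17.31 and 17.14 in control cultures. The groups overlapped, and the 2 cultures of replicate 1 were nearly equal. The ratios were -0.003, -0.14, -0.27 and -0.25, with a mean of -0.17 ± 0.12 (SD, n = 4) and of -0.22 ± 0.07 (SD, n = 3) without replicate 1. The SD over the 10 spots of an array was 0.0363 to 0.0704, which is the technical spread between spots and not that between cultures.

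Acta1 and Actc1 encode the skeletal and cardiac α-actins of the sarcomere, and Actc1 is the form that embryonic skeletal muscle uses first. The Acta1 probe A_51_P246854 had signals of 13.37, 13.66, 13.48 and 13.12 in palmitate cultures, against 13.39, 13.63, 13.43 and 13.49 in control cultures. Its ratios were -0.02, 0.03, 0.05 and -0.37, with a mean of -0.08 ± 0.20 (SD, n = 4), so that only replicate 4 lay away from 0. Actc1 (A_55_P2040951) was dim, with signals of 8.67, 8.22, 8.43 and 8.45 in palmitate cultures and 8.47, 8.42, 8.74 and 8.53 in control cultures. Its ratios were 0.20, -0.20, -0.31 and -0.08, with a mean of -0.10 ± 0.22 (SD, n = 4) and of -0.19 ± 0.11 (SD, n = 3) without replicate 1. The cultures of both groups overlapped for Acta1 and for Actc1.

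The ratio of Actb minus that of Acta2 was 0.29, 0.88, 1.39 and 1.08 on replicates 1 to 4, with a mean of 0.91 ± 0.46 (SD, n = 4). It was above 0 on every array, and smallest on replicate 1. Markers of differentiated muscle and of smooth muscle were read beside these values. Of 7 differentiated muscle markers on the array, 6 were above background on all palmitate arrays and 5 on all control arrays. The log2 of the summed signal of the 6 markers with 4 values ranged from 11.74 to 11.87 in palmitate cultures and from 11.47 to 11.68 in control cultures. Among these 6, Mymk had a mean ratio below 0 (-0.06). The sum of the adipocyte markers did not overlap either (11.07 to 11.39 in palmitate, 11.01 to 11.06 in control cultures). The sums of myoblast (16.44 to 16.48 and 16.22 to 16.45), osteoblast and leukocyte markers overlapped. Of 7 smooth muscle markers, 6 were above background on all arrays in both groups and Myh11, the smooth muscle myosin, on none. Their log2 summed signal ranged from 15.09 to 15.8 in palmitate cultures and from 15.78 to 15.93 in control cultures. Actg2, an actin described below, weighs most in this sum, with mean signals of 14.28 in palmitate and 14.98 in control cultures. Ldb3 had a mean ratio above 0 (0.09), and Des is also counted as a myoblast marker. The part of these markers in the actin ratios was not tested.

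**Figure D2:**
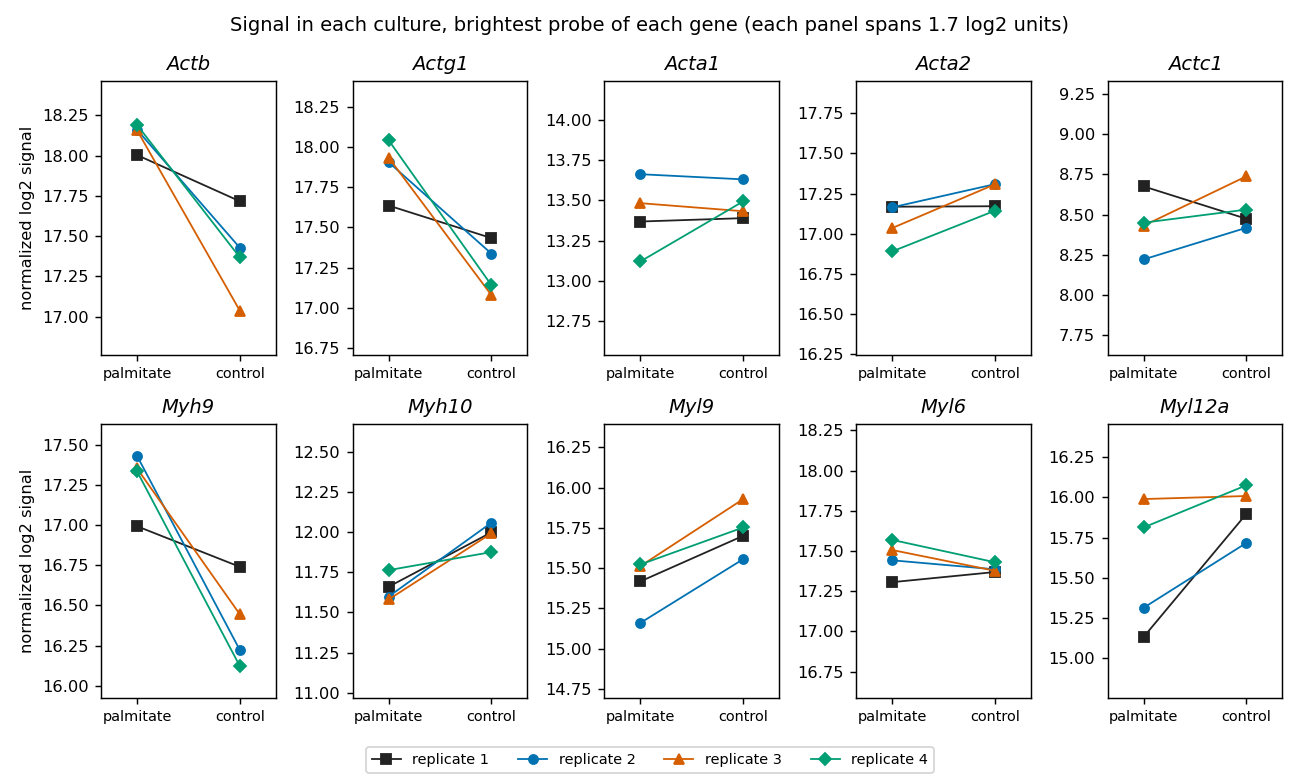
Normalized log2 signal of the brightest probe of each gene in each palmitate culture (left) and in the control culture of the same array (right), joined by a line. Lines fall to the right for Actb, Actg1 and Myh9, climb for Myh10 and Myl9, and are near level for Myl6, and every panel spans the same range of log2 units.

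Myh9 encodes the heavy chain of nonmuscle myosin IIA, which assembles and turns over fast at the front of migrating cells. Its probe A_55_P2028600 had signals of 16.99, 17.43, 17.35 and 17.33 in palmitate cultures, against 16.74, 16.22, 16.45 and 16.12 in control cultures. All palmitate cultures lay above all control cultures. The ratios were 0.25, 1.21, 0.91 and 1.21, with a mean of 0.89 ± 0.45 (SD, n = 4), or 1.86-fold. Replicate 1 was the lowest here too, and without it the mean was 1.11 ± 0.17 (SD, n = 3), or 2.16-fold. This was the highest mean of the 15 probes, at percentile 99.8 of all tested probes.

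Myh10 encodes the heavy chain of nonmuscle myosin IIB, which stays longer on actin and holds tension in the rear and centre of a cell. Its probe A_55_P2088525 had signals of 11.66, 11.60, 11.58 and 11.76 in palmitate cultures, against 12.00, 12.06, 11.99 and 11.88 in control cultures. The groups did not overlap, with palmitate below. The ratios were -0.34, -0.46, -0.41 and -0.11, with a mean of -0.33 ± 0.15 (SD, n = 4) and of -0.33 ± 0.19 (SD, n = 3) without replicate 1. In contrast to Myh9, replicate 1 was within the range of the other arrays. The ratio of Myh9 minus that of Myh10 was 0.59, 1.67, 1.32 and 1.32 on replicates 1 to 4, with a mean of 1.22 ± 0.45 (SD, n = 4).

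Among the light chains, Myl9 encodes the regulatory chain that smooth muscle shares with nonmuscle cells. Its probe A_51_P308298 had signals of 15.42, 15.16, 15.51 and 15.52 in palmitate cultures, against 15.70, 15.56, 15.93 and 15.75 in control cultures. The groups did not overlap, with palmitate below. The ratios were -0.28, -0.40, -0.42 and -0.23, with a mean of -0.33 ± 0.09 (SD, n = 4), and this was the smallest SD of the 10 brightest probes. Without replicate 1 the mean was -0.35 ± 0.10 (SD, n = 3).

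Myl12a encodes a nearly identical regulatory chain of nonmuscle cells. Its probe A_66_P107790 had signals of 15.13, 15.32, 15.99 and 15.81 in palmitate cultures, against 15.90, 15.72, 16.01 and 16.08 in control cultures. The groups overlapped, since the palmitate cultures of replicates 3 and 4 lay above the control culture of replicate 2. The ratios were -0.77, -0.40, -0.02 and -0.26, with a mean of -0.36 ± 0.31 (SD, n = 4), and here replicate 1 gave the largest difference. Without it the mean was -0.23 ± 0.19 (SD, n = 3). The ratio of Myl9 minus that of Myl12a averaged 0.03 ± 0.36 (SD, n = 4), within the spread between arrays.

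Myl6 encodes the essential light chain that nonmuscle and smooth muscle myosins share. Its brightest probe A_55_P2027969 had signals of 17.31, 17.44, 17.51 and 17.57 in palmitate cultures, against 17.37, 17.39, 17.38 and 17.43 in control cultures. The groups overlapped, with a mean ratio of 0.07 ± 0.09 (SD, n = 4). Its other probe A_55_P2096257 had ratios of 0.02, 0.61, 0.09 and 0.49, with a mean of 0.30 ± 0.29 (SD, n = 4), and signals in palmitate cultures all above those in control cultures. The 2 probes of Myl6 thus differed mainly on replicates 2 and 4. The ratio of Myh9 minus that of Myl9 averaged 1.23 ± 0.47 (SD, n = 4), with the heavy chain above 0 and the regulatory light chain below 0 on each array.

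All 15 probes were well above background on every array in both channels, and none was saturated. Of them, 4 were above 0 on all arrays, where 15.7% of all tested probes were, and 4 were below 0 on all arrays, where 14.5% were. On replicates 2 to 4, 9 were above 0 on each array (30.9% of all tested probes) and 5 were below (29.7%). These 9 include all 5 probes of Actg1 and the 2 of Myl6, and probes of the same gene are not independent. A mean fold of at least 1.6 was reached by 2 probes with palmitate higher, those of Actb and Myh9 (0.902% of all tested probes), and by 0 with palmitate lower (1.71%). The palmitate cultures lay wholly above the control cultures for 4 probes (Actb, the brightest of Actg1, Myh9 and the second of Myl6; 5.4% of all tested probes) and wholly below for 2 (Myh10 and Myl9; 6.76%). Of all tested probes, 0% passed the test in limma (adjusted p under 0.05 and a fold of at least 1.6), members included. The unadjusted p of limma was under 0.05 for 2682 probes that were lower and for 2601 that were higher. Since the members were chosen on this comparison, these shares are the background only.

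Before dye normalization the arrays as a whole leaned to red, with a median of 0.99 for the mean ratios of all tested probes. Those of the 15 probes were likewise above 0 on every array except for Myl12a on replicate 1 (-0.18). The Actb spot read 369826, 482403, 557870 and 414616 in the palmitate channel and 170735, 105731, 57923 and 135155 in the control channel (median signal, replicates 1 to 4). After background correction alone its log2 ratios were 1.12, 2.19, 3.27 and 1.62, of which dye normalization took off 0.83, 1.46, 2.15 and 0.79. For Myh10 the ratios before it were 0.01, 0.64, 1.61 and 0.84, all above 0, and the normalization took off 0.34, 1.10, 2.02 and 0.96. The lower values of Myh10, Myl9, Acta2 and, on replicates 2 to 4, Myl12a are therefore relative to the other probes of an array. The amount taken off differed between the members as well, from 0.34 (Actc1) to 0.83 (Actb) on replicate 1, from 0.67 (Actc1) to 1.46 (Actb) on replicate 2 and from 1.6 (Actc1) to 2.15 (Actb) on replicate 3. On replicate 4 the order was turned round, with 1.42 taken off for Actc1 and 0.79 for Actb.

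Brightness and ratio were also related at the top of the range. The probes of Actb and Acta2, the brightest probe of Myl6 and 2 probes of Actg1 (A_55_P1970597 and A_55_P2114993) were among the brightest 1% of tested probes, and that of Myh9 was at percentile 98.7. The 242 probes in this brightest 1% had a median mean ratio of 0.14 (5th to 95th percentile -0.36 to 0.65), against 0.01 (-0.45 to 0.42) for all tested probes. The means of Actb and Myh9 lay above that 95th percentile, those of both Actg1 probes (0.63 and 0.35) lay inside it, and those of Acta2 and Myl6 lay below the median of this brightest 1%. By array, the median of these 242 probes was 0.27 on replicate 1 and 0.19, 0.13 and 0.086 on replicates 2 to 4. The ratios on replicate 1 were 0.29 for Actb, 0.25 for Myh9 and 0.20 for the brightest Actg1 probe. On that array they were thus no higher, or hardly higher, than the median of the brightest probes. The part of brightness in these ratios was not tested.

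**Figure D3:**
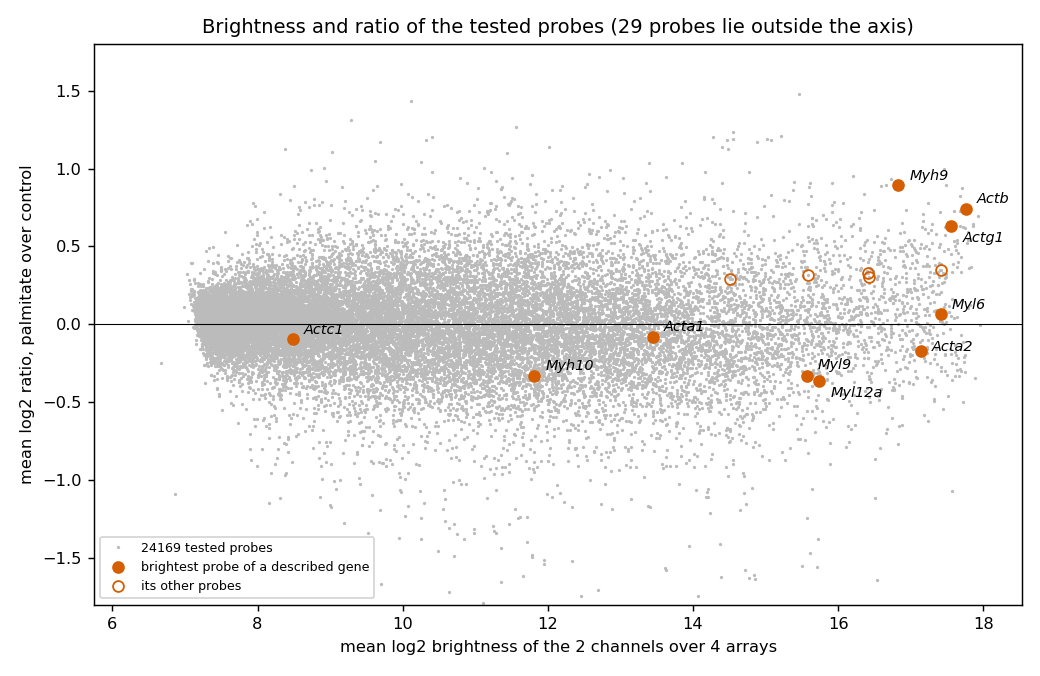
Mean log2 ratio of palmitate over control (vertical axis) against mean log2 brightness of both channels (horizontal axis) for the 24169 tested probes in grey, with the brightest probe of each described gene as filled circles and other probes of Actg1 and Myl6 as open circles. Myh9, Actb and Actg1 lie high at the bright end, where Acta2 and Myl6 lie nearer 0.

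The direction of some members depends on how the dyes were balanced. When each array was only centred on its median, the median of all tested probes stood at 0.18, and ratios are given here relative to that median. Actb was then 1.06, Actg1 0.94 and Myh9 1.17 above it, whereas Myh10 was at -0.21, Myl12a at -0.14 and Myl9 at -0.12. Acta2, at -0.18 with loess, was at 0.12 with median centring. Acta1 changed its side likewise (-0.09 with loess, 0.06 with median centring), and Myl6 stood at 0.36. With the processed signals of the scanner software Myl6 was at -0.11, Acta2 at -0.33, Actb at 0.52 and Myh9 at 0.72. Without replicate 4 the mean ratio of Acta1 was 0.02.

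**Figure D4:**
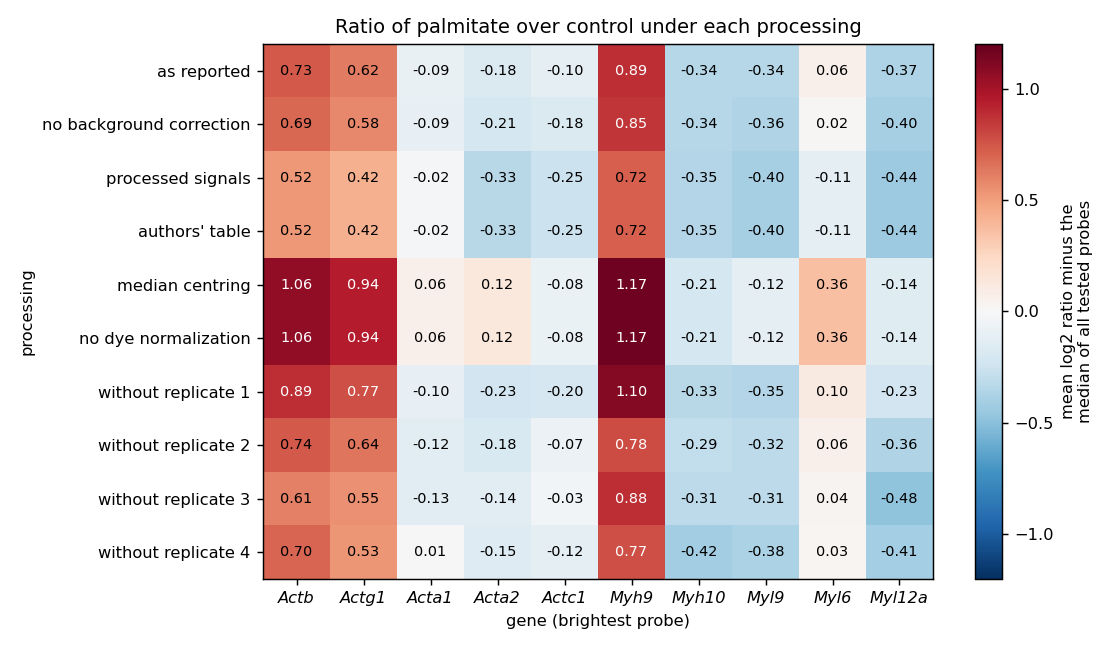
Mean log2 ratio of palmitate over control minus the median of all tested probes, for the brightest probe of each gene (columns) under each processing of the arrays (rows), red above and blue below the median. Actb, Actg1 and Myh9 are red and Myh10, Myl9 and Myl12a blue in every row, whereas Acta1, Acta2 and Myl6 change colour between rows. Rows are not all separate checks. Those for median centring and for no dye normalization hold nearly equal values by construction. The same is true of those for processed signals and the authors' table.

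The members were compared by the root mean square difference of their 4 ratios, over 4 arrays that also share 1 slide. A small difference reflects a like level as much as a like course over the arrays, and some pair is always the closest. The members were chosen on these ratios, so the differences are a description only. The closest pair was Myh10 and Myl9 (0.0721), followed by Acta2 and Actc1 (0.137) and by Actb and Actg1 (0.167). Among 13631 other named genes with 4 values, those nearest to Actb were Ufl1 (0.126), Hspa5 (0.15), the chaperone BiP of the endoplasmic reticulum, and Tpx2 (0.151), a spindle assembly factor. Nearest to Myh9 were Cks2 (0.0982), a subunit of cyclin-dependent kinases, the transcription factor Klf4 (0.122) and Mex3c (0.14), an RNA-binding ubiquitin ligase. For Acta2 they were Gskip (0.0187), Shf (0.0199) and Mrnip (0.027), and for Myl9 Ccdc28b (0.0183), Gigyf2 (0.0214) and Phtf1 (0.0304). Many genes have small ratios, so near neighbours of Acta2 and Myl9 are closer than those of Actb and Myh9.

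Promoter sequences are shown because SRF binds CArG boxes in actin and light chain genes, and because members with and without such a box could be set beside their ratios. RefSeq promoters of build GRCm38.p6 (250 bases before to 50 after a transcript start) matched 9 of 10 genes with 10 promoters, and Actb had no entry. A CArG box was read as CC, then 6 bases that are each A or T, then GG, which reads the same on both strands, and a CArG-like box has 1 of the inner 6 as G or C. Capitals mark the box in stretches with 40 bases on either side, 5′ to 3′ along the gene.
Actg1, chr11:120348536-120348625, minus strand: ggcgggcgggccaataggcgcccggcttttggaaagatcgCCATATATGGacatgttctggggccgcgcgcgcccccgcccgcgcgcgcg
Acta1, chr8:123894799-123894888, minus strand: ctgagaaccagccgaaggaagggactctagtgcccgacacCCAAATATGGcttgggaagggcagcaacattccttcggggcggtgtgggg
Actc1, chr2:114052873-114052962, minus strand: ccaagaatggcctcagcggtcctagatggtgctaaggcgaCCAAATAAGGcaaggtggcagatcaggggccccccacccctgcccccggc
Myl9, chr2:156775263-156775352, plus strand: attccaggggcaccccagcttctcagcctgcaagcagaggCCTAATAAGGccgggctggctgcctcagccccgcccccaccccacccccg
Myl6, chr10:128493010-128493099, minus strand: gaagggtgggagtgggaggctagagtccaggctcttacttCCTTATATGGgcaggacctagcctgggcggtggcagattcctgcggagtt
Acta2 (CArG-like), chr19:34255408-34255497, minus strand: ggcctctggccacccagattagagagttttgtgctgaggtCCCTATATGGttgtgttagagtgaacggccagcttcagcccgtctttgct

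A CArG box was found in 5 member genes (Actg1, Acta1, Actc1, Myl9 and 1 of the 2 promoters of Myl6), and in 1.63% of all 32851 promoters. The first base of the box lay 90 bases before the start in Actg1, 73 in Acta1, 47 in Actc1, 161 in Myl9 and 50 in Myl6. Only a CArG-like box, held by 8.5% of all promoters, was found in Acta2 (84 and 34 bases before the start) and in Myl12a (18 bases before it). Neither form was found in the window of Myh9 or Myh10. Genes with the box had mean ratios from -0.33 (Myl9) to 0.63 (Actg1), and those without either form had 0.89 (Myh9) and -0.33 (Myh10). The genes with only a CArG-like box had -0.17 (Acta2) and -0.36 (Myl12a). The genes are few and were chosen on these ratios, and sites outside the window were not searched. A link between the boxes and the ratios was not tested.

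The rest of the actin and myosin machinery was read from 8 lists set by function, of which 221 of 225 genes were on the array and 185 were tested through their brightest probe. In limma 0 of them passed the test, with 30 higher and 20 lower at p under 0.05 before adjustment. Over all 13712 tested genes, 10.8% were higher and 13.3% lower at that level, which is the background for the counts of each list below. The median ratio of the 185 genes was 0.02, against 0.00 for all tested genes. Without replicate 1, 9 of the 185 passed with palmitate higher, where 2.01% of all tested genes did, and 3 with palmitate lower, where 2.84% did. None passed when replicate 2, 3 or 4 was left out instead.

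Genes that bind actin monomers or cap and sever filaments supplied 5 of these 9: Dstn, Tmsb4x, Tmsb10, Tmod3 and Twf1. Over all arrays the list had 30 tested genes and a median of 0.05, with 7 higher and 3 lower at p under 0.05 before adjustment. Dstn, a filament-severing relative of cofilin, had ratios of 0.37, 1.22, 0.85 and 0.73, with a mean of 0.79 ± 0.35 (SD, n = 4; adjusted p = 0.118 in limma, and 0.00568 without replicate 1). Tmsb4x, thymosin β4, which holds monomers in reserve, had 0.32, 0.82, 0.99 and 0.53, with a mean of 0.67 ± 0.30 (SD, n = 4; adjusted p = 0.118, and 0.00788 without replicate 1). Both were above 0 on all 4 arrays, as the rule by which they were named requires. The lowest with 1 sign on all arrays were Pfn1, profilin, which feeds monomers to growing ends, with -0.21 ± 0.16 (SD, n = 4) and the kinase Tesk2 with -0.10 ± 0.11 (SD, n = 4). Tmsb10, Tmod3 and Twf1 were named after their values were seen.

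The list of other actins held 9 tested genes and a median of -0.01, with 0 higher and 3 lower at p under 0.05 before adjustment. Actg2, the enteric smooth muscle actin, had ratios of -0.10, -0.81, -0.93 and -0.98, with a mean of -0.70 ± 0.41 (SD, n = 4; adjusted p = 0.12 in limma). It passed without replicate 1, with a mean of -0.90 (adjusted p = 0.00309), and its mean over 4 arrays was below that of each muscle actin among the members. Actr5, an actin-related protein of a chromatin remodeller, had -0.30 ± 0.16 (SD, n = 4).

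Partners and regulators of myosin II (28 tested, median 0.03) had 4 genes higher and 1 lower at p under 0.05 before adjustment. The highest with 1 sign on all arrays was the myosin-activating kinase Cdc42bpa with 0.38 ± 0.21 (SD, n = 4), whose other probes had means of 0.07, 0.11 and 0.65. The lowest was Ppp1r12a, the targeting subunit of myosin phosphatase, with -0.22 ± 0.12 (SD, n = 4). A second probe of Ppp1r12a went the other way, at 0.31 ± 0.28 (SD, n = 4). Ppp1cb, the catalytic subunit of that phosphatase, passed without replicate 1 with ratios of -0.18, 1.97, 0.35 and 1.49, and was named after its values were seen.

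Unconventional myosins (16 tested, median -0.05) had 1 gene higher and 4 lower at p under 0.05 before adjustment. Myo1e and Myo9a were the highest with 1 sign on all arrays, at 0.33 ± 0.32 and 0.16 ± 0.12 (SD, n = 4), and Myo1g and Myo1c the lowest, at -0.27 ± 0.25 and -0.25 ± 0.13 (SD, n = 4). The other probes of Myo9a had -0.02 ± 0.15 and 0.31 ± 0.20, and that of Myo1c had -0.35 ± 0.32 (SD, n = 4). Formins and other nucleators of straight filaments (20 tested) had the highest median of the 8 lists, 0.12, with 4 genes higher and 2 lower. Among them Daam1 and Enah had 0.38 ± 0.28 and 0.28 ± 0.24 (SD, n = 4), with 1.12 ± 0.87 (SD, n = 4) for a second probe of Enah, and Fhod1 and Fmnl3 had -0.53 ± 0.33 and -0.25 ± 0.18 (SD, n = 4). Without replicate 1 the filopodial motor Myo10 passed with palmitate lower and the formin Diaph3 with palmitate higher, both named after their values were seen.

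Tropomyosins and cross-linkers (38 tested, median -0.02) had 9 genes higher and 6 lower at p under 0.05 before adjustment. Marcks, which ties filaments to the membrane, had 0.49 ± 0.36 and the bundling protein Pls3 had 0.46 ± 0.13 (SD, n = 4). Cald1, caldesmon, which restrains myosin on actin, had -0.55 ± 0.35, and Tagln, transgelin, a marker of contractile cells, had -0.45 ± 0.17 (SD, n = 4). Tagln was below 0 on all arrays, as the rule by which it was named requires. Tpm1, a tropomyosin, passed without replicate 1 with palmitate higher (ratios of -0.26, 0.65, 1.04 and 0.81), and the cross-linker Palld passed with palmitate lower. Both were picked once their values were known.

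SRF, its coactivators and their targets (36 tested, median 0.01) had 6 genes higher and 5 lower at p under 0.05 before adjustment. The shares over all tested genes were 10.8% and 13.3%. Some genes of this list, among them Tagln, Tpm1 and Csrp1, are also counted with the tropomyosins and cross-linkers. The probe of Elk1, an SRF partner factor, had ratios of 1.08, 0.51, 0.63 and 0.15, with a mean of 0.59 ± 0.39 (SD, n = 4). Its mean signals were 18.097 in palmitate and 17.505 in control cultures, beside 18.129 and 17.387 for Actb. Whether so bright a probe reads Elk1 alone was not tested. Csrp1, a LIM protein of actin bundles, had 0.29 ± 0.24 (SD, n = 4). Fhl2, a LIM protein that binds SRF, had -0.46 ± 0.24 and Tagln, given above, had -0.45 ± 0.17 (SD, n = 4). Srf itself had 0.11 ± 0.09 (SD, n = 4) and was named after its values were seen, as was the LIM protein gene Fhl1, which passed without replicate 1 with palmitate higher. Sarcomeric myosins and thin filament genes (22 tested, median 0.01) had 2 genes higher and 0 lower: Myh3, the embryonic myosin, with 0.32 ± 0.18 and Tnnt1, slow troponin T, with 0.31 ± 0.20 (SD, n = 4).

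**Figure D5:**
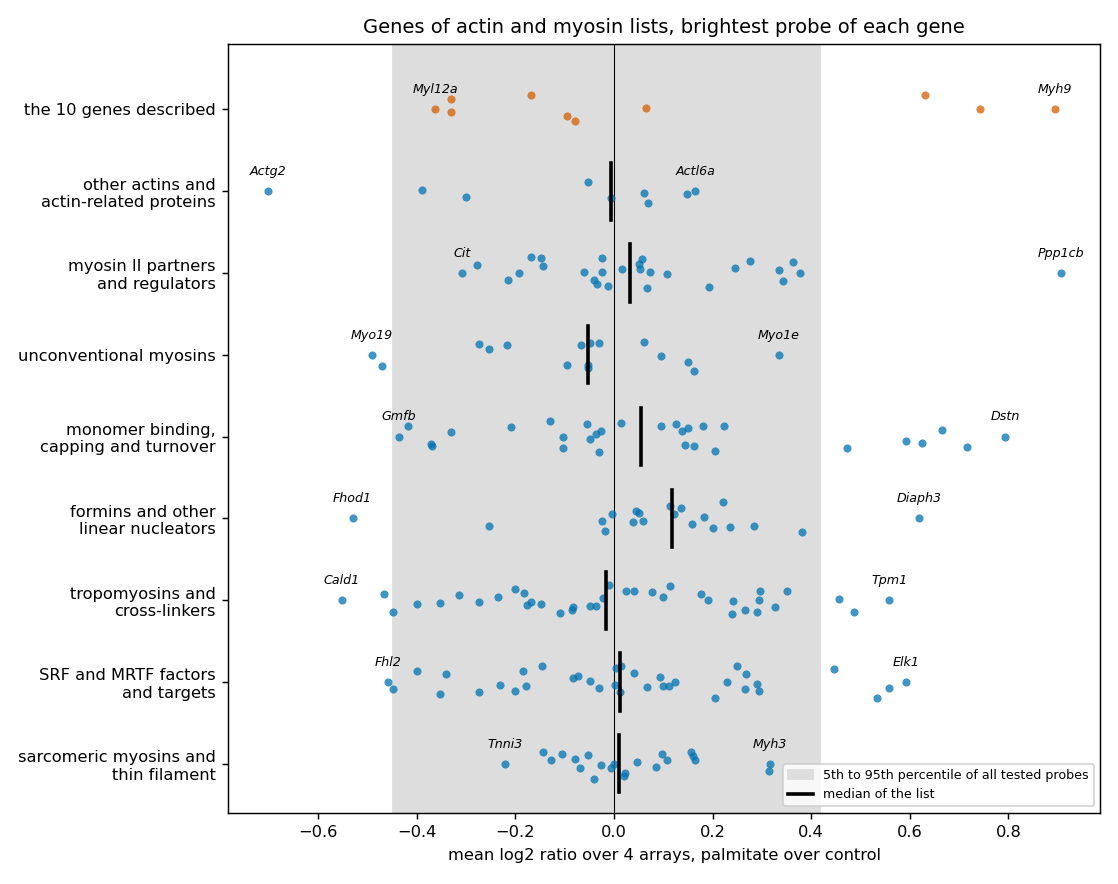
Mean log2 ratio of palmitate over control over 4 arrays for the brightest probe of each gene, in the 10 genes described (top) and in 8 lists of actin and myosin genes, with the list median as a black bar and the 5th to 95th percentile of all tested probes in grey; the highest and lowest gene of each row are named. List medians lie between -0.05 and 0.12, and Myh9 lies right of every list gene but Ppp1cb.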

How the data were processed

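RNA of 4 palmitate and 4 control C2C12 cultures was measured on 4 two-colour arrays of 1 slide, which the authors read with Agilent Feature Extraction 10.7.3.1. Of the deposited values, spot and background medians are uncorrected intensity, and processed signals are intensity from which background was subtracted and in which dyes were balanced. Deposited too are the log10 ratio of each spot, flags for background, saturation and outlier spots, and the authors' table of log2 ratios, equal to those of the processed signals within 3.02e-06.

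Medians were corrected with normexp (offset 50) and loess in limma 3.58.1 (R 4.3.3), outlier spots were left out, and spots of a probe were averaged. Tested were 24169 of 39429 probes, those well above background on all arrays in the palmitate channel, in the control channel or in both. The mean ratio was tested against 0 with limma's moderated test and Benjamini-Hochberg adjustment. The pairing is that of the 2 cultures on an array. Signals per culture are the same ratios around Aquantile-normalized brightness. The brightest tested probe stands for a gene. Fits were tested on simulated data. Brightness depends on the probe as well as on the RNA, so its percentiles among probes are not expression levels. P-values measure the spread between these arrays only, whose number limits the precision.

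The members and lists were chosen with earlier results of these data known. Named were all member probes, per list the 2 highest and 2 lowest genes with 1 sign on 4 arrays, and the 3 genes nearest to Actb, Acta2, Myh9 and Myl9. For the list of myosin II partners, some results are not reported here. Alternatives changed the background correction, dye normalization, filter, test, source of values and arrays.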

Additional observations from a re-analysis of the deposited data

Results flagged for a closer look

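Of 54 sets of 4 values examined for a single distant array, 1 was past the critical value for the gap as a share of the range, while chance flags about 1 in 20. It was Acta1 (A_51_P246854). Its ratio of palmitate over control was -0.373 in replicate 4, far below the other arrays (-0.0208 to 0.0494). The gap made up 0.834 of the range.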

How the results depend on the processing

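In limma 0 probes and 0 list genes passed with all arrays. Leaving out 1 array in turn gave 0 to 1308 probes and 0 to 12 list genes, with all of these calls coming from the fit without replicate 1 (753 probes lower and 555 higher). Processed signals and the authors' table gave 13 probes each. With the pairing of an array ignored (no replicate block) 29 probes passed, and the limit of 50% on the coefficient of variation gave 2. The unpaired t-test that the paper names gave 3. It was run on the signals normalized here and on the probes tested here, not on values preprocessed as in the paper. No list gene passed in these settings. Without dye normalization 20348 probes and 165 list genes passed, because the median ratio of all probes was then 0.99. No background correction, median centring, no filter and a filter on both channels gave 0 probes and 0 list genes. Among the members, with median centring Acta2 had a mean ratio of 0.30, Myl9 of 0.061 and Myl12a of 0.032, and without dye normalization Acta2 had 1.11, Myh10 0.77, Myl9 0.87 and Myl12a 0.84. Acta1 (-0.08 with loess) and Actc1 (-0.10) also turned sign, with 0.24 and 0.10 under median centring and 1.05 and 0.91 without dye normalization, so that only Myh10 stayed below 0 under median centring and no member did without dye normalization. Myl6 turned to -0.098 with processed signals and with the authors' table. Without replicate 4 Acta1 was at 0.02, while the other members kept their sign without any 1 array.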
